A study of Mus musculus with 6 samples.

Results

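The genes described here handle myo-inositol and other organic osmolytes. They are the 7 genes Slc5a3, Slc6a6, Nfat5, Akr1b3, Isyna1, Impa1 and Impa2, found by symbol among the 55291 genes of the table. The group was chosen by the measured difference between Calr KO and control cells in the same libraries: Slc5a3 had passed the test of that contrast, and the rest was added by role with its values known. The differences of these 7 genes are therefore given as a description. The cells, called LLC, are a line derived from the Lewis lung carcinoma of mice. Calr KO cells (n = 3 libraries) had received plasmids with Cas9 and a guide RNA against Calr, the gene of the endoplasmic reticulum chaperone calreticulin. Control cells (n = 3 libraries), labelled WT, had received Cas9 with a control guide. Both groups were then kept for 10 days in DMEM with serum, seeded in wells and collected 48 hours later without further treatment. Each group was 1 population of cells divided over 3 wells, so the spread given below is that between wells, and no separate knockout was measured. All 6 libraries carry the same batch label. No selection of clones is described, and Calr transcript remained in the Calr KO libraries.

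Myo-inositol is the head group of phosphatidylinositol, from which cells make the lipid and soluble inositol phosphates used in signalling, among them the trisphosphate that releases calcium from the endoplasmic reticulum. Cells take it up through sodium-coupled carriers or make it from glucose 6-phosphate in a pair of steps, the ring closure by ISYNA1 and the removal of the phosphate by the inositol monophosphatases. Together with taurine and sorbitol it is also a compatible osmolyte, which cells accumulate when the medium is hypertonic, under control of the transcription factor NFAT5.

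Slc5a3 encodes SMIT1, the sodium/myo-inositol cotransporter. It lies on the plus strand of chromosome 16 at positions 92058322 to 92087473 (GRCm38, GENCODE M21). Its longer transcript has a first exon of 159 bases and a second exon of 10754 bases. In GENCODE all 159 bases of the first exon are also exon of Mrps6, a mitochondrial ribosomal protein gene on the same strand. The GENCODE start of Mrps6 lies 52 bases upstream of that of Slc5a3. The shared bases are 1.46% of the exon bases of Slc5a3 and 10.4% of those of Mrps6. All of Slc5a3 lies within the Mrps6 gene, which spans positions 92058270 to 92112227. Whether unspliced Mrps6 transcript adds to the counts of Slc5a3 was not tested. Promoter windows from RefSeq (GRCm38.p6) were used for 3 of the 7 genes, Slc5a3, Nfat5 and Isyna1, each with 250 bases before and 50 after the start. In RefSeq the start of Mrps6 lies 14 bases downstream of that of Slc5a3, unlike in GENCODE, and their windows have 286 bases in common. Those of Slc5a3 (chr16:92058072-92058371, plus strand) and Isyna1 (chr8:70594231-70594530, plus strand) are shown because these genes had the highest and the lowest level of the group, and capitals mark the 50 bases after the RefSeq start.
Slc5a3: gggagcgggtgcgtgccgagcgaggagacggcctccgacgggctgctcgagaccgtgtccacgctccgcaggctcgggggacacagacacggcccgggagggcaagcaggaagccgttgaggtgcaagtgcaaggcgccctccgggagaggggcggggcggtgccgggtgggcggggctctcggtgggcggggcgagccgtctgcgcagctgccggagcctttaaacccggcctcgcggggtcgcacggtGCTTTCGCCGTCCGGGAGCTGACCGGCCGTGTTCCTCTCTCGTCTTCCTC
Isyna1: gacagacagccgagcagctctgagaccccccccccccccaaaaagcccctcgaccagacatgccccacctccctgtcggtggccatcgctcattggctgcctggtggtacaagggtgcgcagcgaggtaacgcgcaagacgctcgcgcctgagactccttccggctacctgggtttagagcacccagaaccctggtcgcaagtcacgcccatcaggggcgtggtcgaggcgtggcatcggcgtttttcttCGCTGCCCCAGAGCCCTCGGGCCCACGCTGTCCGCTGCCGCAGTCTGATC
The Slc5a3 window held 73.3% G and C and 38 CpG pairs, the Isyna1 window 66% and 24, against medians of 52.7% and 7 over all 32851 windows of this length. The GC box GGGCGG, searched on both strands with overlapping matches counted, occurred 4 times in the Slc5a3 window, 2 times in that of Nfat5 and 0 times in that of Isyna1, and 35.7% of all windows held it. The tonicity element bound by NFAT5 had no match on either strand in the 3 windows, nor had its core TGGAAA; 4.96% and 21.4% of all windows held these.

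The 6 libraries summed to between 14040692 and 14099985 normalised counts. Calr, the targeted gene, had 4467, 4216 and 4453 normalised counts in Calr KO cells, against 10711, 10202 and 11047 in control cells, so the libraries followed their labels. The fit covered the 13199 genes whose mean reached 10, and 37 of them (0.28%) passed at an adjusted p under 0.05 (limma, Benjamini-Hochberg), 26 higher and 11 lower in Calr KO cells. Of the markers of lung epithelium, Krt8 and Krt18 were read, while Sftpc, Scgb1a1, Nkx2-1 and Epcam were listed at 0 in all libraries. The 6 macrophage markers summed to between 65.1 and 114 in Calr KO cells and between 75.5 and 97.1 in control cells. Most of this was Cd68, with means of 79.0 in Calr KO and 68.0 in control cells. The other 5 had a mean under 10, with Adgre1 at 0. The 6 lymphocyte markers summed to at most 3.15 in Calr KO and 1.03 in control cells. The 5 endothelial markers gave 57.0 to 66.5 in Calr KO and 47.6 to 70.6 in control cells. The 5 fibroblast markers, mainly Pdgfra and Dpt, gave 2497 to 2853 in Calr KO and 2269 to 2710 in control cells. All 4 fibroblast markers that were tested had a difference above 0 and did not pass; Dcn, at a low level, had 33.2, 27.9 and 34.5 in Calr KO cells, against 12.04, 16.7 and 17.7 in control cells (log2 difference 1.01, SE 0.28, limma adjusted p = 0.312). Cdh5, an endothelial marker, had 6.80, 5.91 and 37.4 in Calr KO cells, against 3.59, 2.98 and 4.17 in control cells (limma adjusted p = 0.574). Its highest value came from Calr KO replicate 3 alone. The other tested endothelial markers went the other way. Kdr had a log2 difference of -0.32 (SE 0.31, limma adjusted p = 0.809), and Vwf one of -0.65 (SE 0.46, limma adjusted p = 0.747). The part of these cell types in the differences below was not tested.

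Uptake of myo-inositol was represented by Slc5a3, whose mRNA stood lower in every Calr KO library. Its normalised counts were 13856, 14005 and 13885 in the Calr KO libraries, and the control libraries held 15622, 15359 and 16103. All 3 Calr KO libraries lay below all 3 control libraries, with a gap wider than the range within each group. The mean was 13915 ± 79.3 in Calr KO cells, against 15695 ± 377 in control cells (SD, n = 3), a change of -11.3% and a log2 difference of -0.17 (SE 0.025, 95% interval -0.23 to -0.12). The limma adjusted p of 0.0253 is the value that placed Slc5a3 among the 11 lower genes and led to its choice. It was the only one of the 7 genes to pass, and 0.0833% of the tested genes passed on the lower side and 0.197% on the higher side. Its groups did not overlap, as in 7.28% of the tested genes on the lower side. The adjusted p was over the threshold without any 1 of the 6 libraries, from 0.0507 without control replicate 2 to 0.144 without Calr KO replicate 1, while the log2 difference stayed between -0.19 and -0.15 in those fits. It was also over the threshold with no filter on low values (adjusted p = 0.0525), with the replicate number as a block (0.0771) and with a single variance prior (0.524). In bulk RNA a lower share of cells with the transcript and less transcript per cell cannot be told apart.

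The Calr KO libraries differed in Slc5a3 by little. Their SD of 79.3 normalised counts lay under the 118 that counting error alone gives at this level, whereas the SD of 377 in control cells lay above the 125 given there. With 3 libraries an SD is itself imprecise. Mrps6, which shares the first exon, had 1438, 1306 and 1445 normalised counts in Calr KO cells, against 1538, 1412 and 1501 in control cells. Its groups overlapped, and its log2 difference was -0.088 (SE 0.059, limma adjusted p = 0.737). A further annotated gene that overlaps Slc5a3 on the same strand, Gm49711, reached at most 2.99 normalised counts in any library. The other carriers of myo-inositol were near 0: Slc5a11, which encodes the second sodium-coupled carrier, had an estimated 2 reads over the 3 Calr KO libraries and 2 over the 3 control libraries. Slc2a13, the proton-coupled carrier, had an estimated 12 reads in Calr KO and 21 in control cells, a ratio of 0.573 (95% exact counting interval 0.257 to 1.22). Slc5a3 was thus the carrier of myo-inositol with nearly all of the reads as listed. Values near 0 can also come from the quantification, which was not tested.

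**Figure D1:**
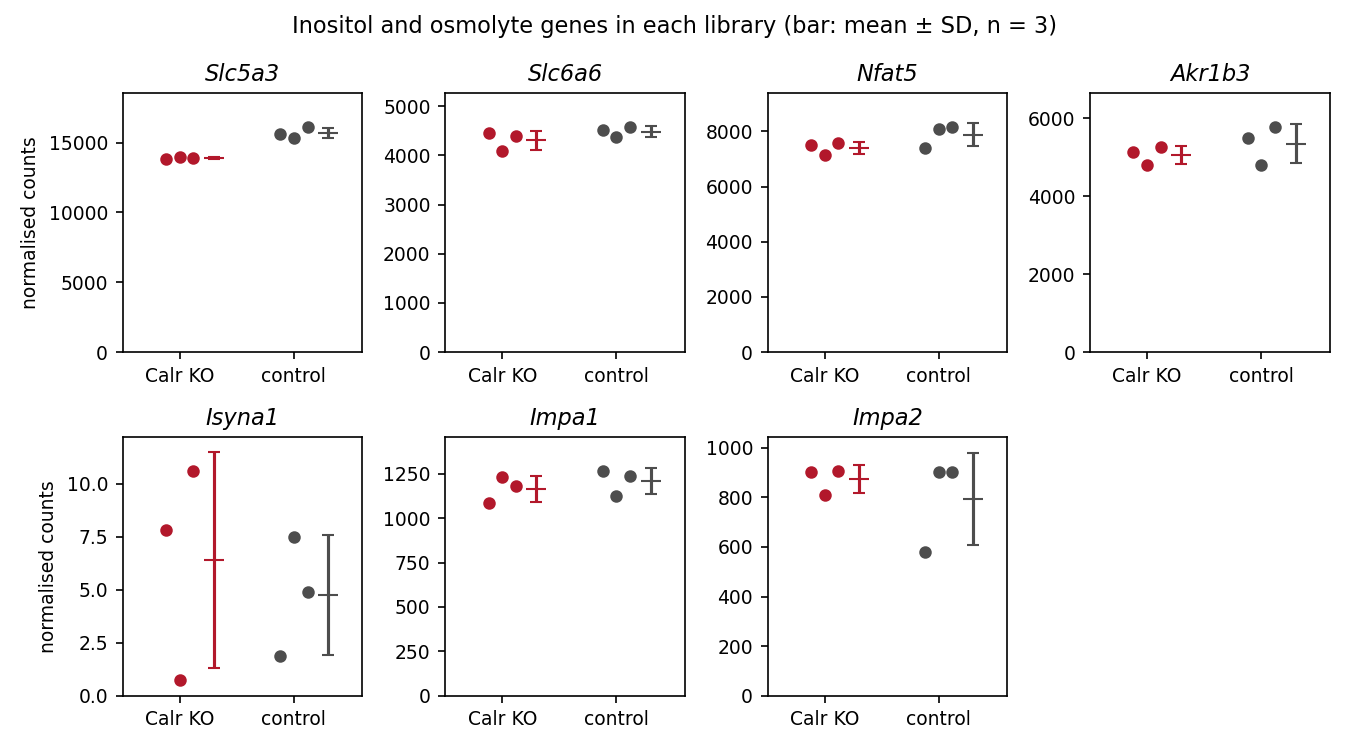
Normalised counts of the 7 inositol and osmolyte genes in each library (points), with mean ± SD of 3 libraries beside them; every vertical axis starts at 0. The Slc5a3 points of Calr KO cells, 13856 to 14005, all lie below those of control cells, 15359 to 16103, and the points of the other genes overlap between groups.

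Synthesis of myo-inositol was represented by a gene that was hardly read and a pair that was. Isyna1, the synthase that closes the inositol ring, had 7.81, 0.742 and 10.6 normalised counts in Calr KO cells, against 1.86, 7.50 and 4.89 in control cells. With a mean of 5.57 over the 6 libraries it fell under the filter on low values and was not tested. An estimated 19 reads in Calr KO and 14 in control cells gave a ratio of 1.36 (95% exact counting interval 0.647 to 2.93). That interval covers counting error only. The SD of Isyna1 between libraries was 2.01 times that of counting error in Calr KO cells and 1.29 times in control cells. The range of changes that could not be detected at this depth is therefore at least as wide as the interval.

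Impa1 and Impa2, the inositol monophosphatases that also recycle inositol from its phosphates and are inhibited by lithium, had values of both groups intermingled. Impa1 had 1088, 1230 and 1182 normalised counts in Calr KO cells, against 1268, 1125 and 1238 in control cells. Its log2 difference was -0.053 (SE 0.068, 95% interval -0.21 to 0.10), and it ran from -0.105 without control replicate 2 to -0.0035 without Calr KO replicate 1. Impa2 had 904, 811 and 907 normalised counts in Calr KO cells, against 579, 903 and 902 in control cells. The low value belongs to control replicate 1, and the other control libraries lie within the range of the Calr KO libraries. The log2 difference of Impa2 was 0.16 (SE 0.15, 95% interval -0.18 to 0.51), and it was -0.048 without control replicate 1. The control SD of Impa2, 186, was 6.61 times that of counting error, against 1.85 times in Calr KO cells.

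Slc6a6 encodes TauT, the sodium- and chloride-dependent taurine carrier. It had 4457, 4094 and 4385 normalised counts in Calr KO cells, against 4512, 4373 and 4573 in control cells. Calr KO replicate 2 was the lowest of the 6 libraries, and the groups overlapped. The log2 difference was -0.058 (SE 0.041, 95% interval -0.15 to 0.035), and it was -0.021 without Calr KO replicate 2. Akr1b3, the mouse aldose reductase, which reduces glucose to sorbitol, had 5127, 4784 and 5246 normalised counts in Calr KO cells, against 5477, 4801 and 5765 in control cells. Replicate 2 was the lowest library of either group. The log2 difference was -0.079 (SE 0.065, 95% interval -0.22 to 0.067), and it was -0.15 without control replicate 2 and -0.022 without control replicate 3. Reads of Akr1b3 can be shared with its relatives Akr1b7, Akr1b8 and Akr1b10 on the same chromosome.

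Nfat5 encodes the transcription factor that drives Slc5a3, Slc6a6 and the aldose reductase gene under hypertonic conditions. It had 7496, 7140 and 7563 normalised counts in Calr KO cells, against 7401, 8088 and 8150 in control cells. Control replicate 1 lay among the Calr KO libraries, and the other control libraries lay above them. The log2 difference was -0.090 (SE 0.042, 95% interval -0.19 to 0.0057), and it was -0.13 without control replicate 1. NFAT5 is also regulated through its protein and its entry into the nucleus, which were not measured.

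Across the genes that were tested, 6 of the 7, the median log2 difference was -0.068, against 0.00036 over all tested genes. Of these 6, 5 had a difference below 0 and Impa2 had one above 0, while 49.9% of all tested genes had one below 0. The 5 include Slc5a3, which was chosen by this same contrast, and the others were added with their values known. The median and the count are therefore a description and no evidence of a shift of the group. A single library, control replicate 1, decides the sign of Impa2. The intervals of Slc6a6, Nfat5, Akr1b3, Impa1 and Impa2 all include 0, and these genes did not pass, which does not show that they were equal in both groups.

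**Figure D2:**
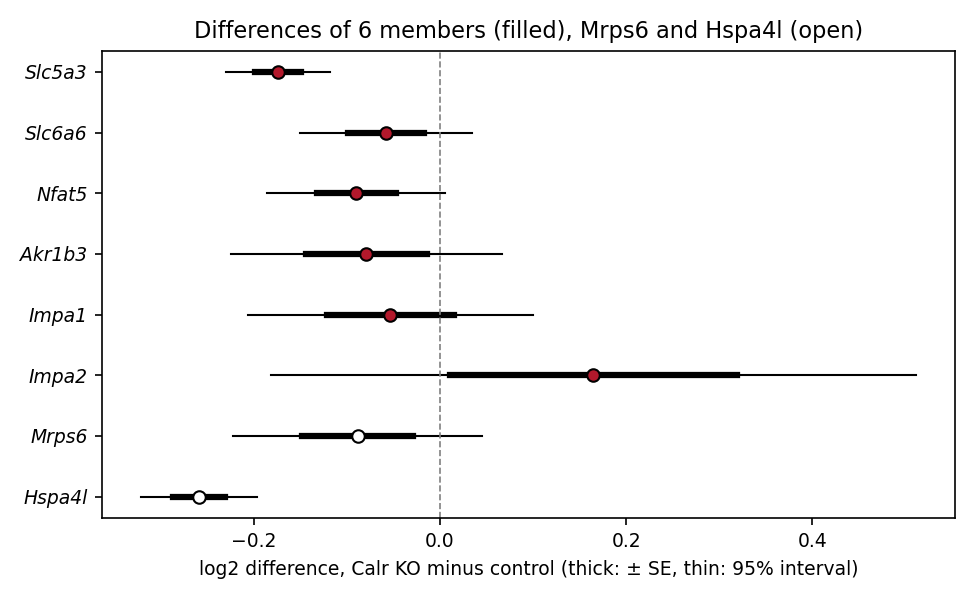
Log2 difference, Calr KO minus control, of the 6 tested inositol and osmolyte genes (filled) and of Mrps6 and Hspa4l (open); thick bars are ± SE and thin bars 95% intervals from limma. The intervals of Slc5a3 (-0.23 to -0.12) and Hspa4l lie below 0, and those of the other 6 genes include it.

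Levels were compared between genes as normalised counts per kilobase of summed exon length. Slc5a3 had the highest level of the group, 1275 ± 7.26 per kilobase in Calr KO cells against 1438 ± 34.5 in control cells (SD, n = 3), above 96.8% of the tested genes with a known length. Akr1b3 followed with 603 ± 28.6 in Calr KO and 638 ± 59.0 in control cells per kilobase. Next came Slc6a6 with 510 ± 22.7 in Calr KO and 530 ± 12.1 in control cells, and Nfat5 with 403 ± 12.4 in Calr KO and 429 ± 22.6 in control cells. These 4 genes lay above at least 87.7% of the tested genes.

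The genes of myo-inositol synthesis stood lower. Impa1 had 215 ± 13.3 per kilobase in Calr KO and 223 ± 13.9 in control cells, and Impa2 had 163 ± 10.2 in Calr KO and 148 ± 34.7 in control cells. Isyna1 had 2.62 ± 2.09 per kilobase in Calr KO and 1.95 ± 1.16 in control cells, below nearly all tested genes. The mean over 6 libraries of Slc5a3 was 594 times that of Isyna1 per kilobase, and that of Impa2 was 68.0 times that of Isyna1. Whether the quantification made Isyna1 too low was not tested. No library of any gene reached the range of its neighbour in this order, so each step exceeded the spread between libraries. The order was the same when the length of the longest transcript was used, which moves Akr1b3 closest to Slc5a3. Exons that these cells leave out, and transcripts that end early, would make a level per kilobase too low, and the isoforms were not measured.

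**Figure D3:**
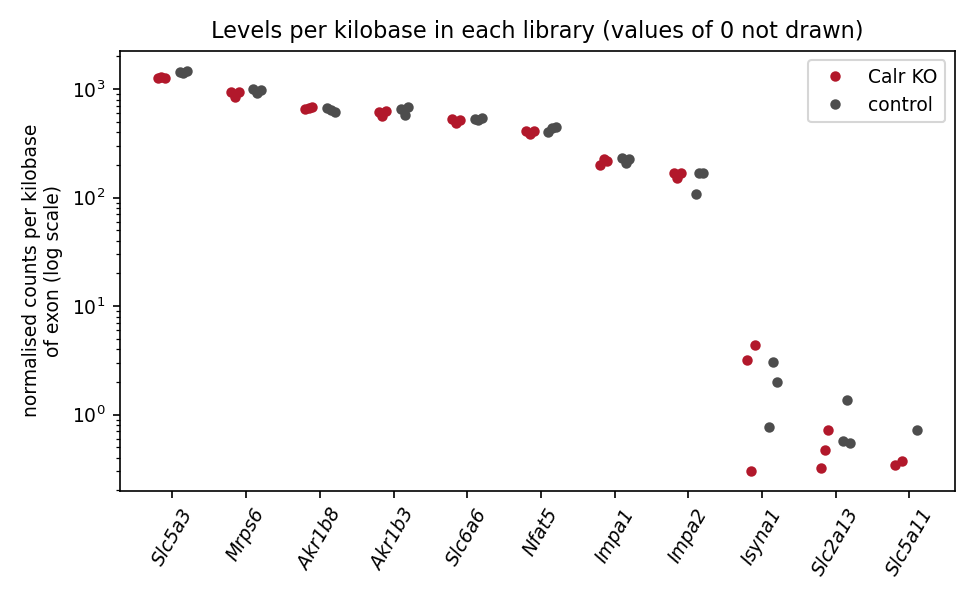
Normalised counts per kilobase of exon in each library, on a log scale, for the 7 genes and for Mrps6, Akr1b8, Slc2a13 and Slc5a11; values of 0 are not drawn. Slc5a3 stands at 1275 in Calr KO and 1438 in control cells (means), and Isyna1 with the other carriers Slc2a13 and Slc5a11 stands orders of magnitude lower.

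Of 8 lists of other genes of these pathways, 1 of 68 tested genes passed, on the lower side, against 0.28% of all tested genes in either direction and 0.0833% on the lower side. It was Hspa4l, which encodes an HSP110-family chaperone known in mouse as an osmotic stress protein. Hspa4l had 8405, 8522 and 8798 normalised counts in Calr KO cells, against 10204, 10387 and 10178 in control cells. All Calr KO libraries lay below all control libraries. The log2 difference was -0.26 (SE 0.028, limma adjusted p = 0.0047), a change of -16.4%. Hspa4l was listed with its result known, and it did not pass with a single variance prior for all genes (adjusted p = 0.367). Of the 12 hypertonicity-responsive genes 7 were tested, of which 1 fell, 0 rose and 6 did not pass (limma; 3 had an unadjusted p under 0.05, as had 8.88% of all tested genes), with a median log2 difference of -0.19. Hspb1, a small heat shock protein gene, was listed at 0 in all libraries, and Aqp2 and Aqp5, which encode water channels, had a mean under 10. A listing at or near 0 can also come from the quantification, which was not tested. Slc44a1, a widely expressed choline carrier gene, was likewise listed at a mean of 0.158 normalised counts, so such values are not read as absence of the transcript.

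Genes that turn inositol into its phosphates and lipids showed no call. Of 22 inositol phosphate kinases and phosphatases, 20 were tested and 0 passed in either direction (limma; 2 had an unadjusted p under 0.05), with a median log2 difference of 0.0086. Their most abundant members were Nudt4, a diphosphoinositol phosphate hydrolase, at 4727 ± 171 normalised counts in Calr KO cells against 4680 ± 91.1 in control cells (SD, n = 3), and Impad1, a relative of the inositol monophosphatases located in the Golgi, at 1964 ± 50.8 in Calr KO and 2067 ± 32.8 in control cells. Of 12 genes of phosphatidylinositol synthesis, transfer and phosphorylation, 11 were tested and 0 passed (limma; 1 had an unadjusted p under 0.05), with a median of 0.021. Cds2, which makes the CDP-diacylglycerol that is joined to inositol, had 2008, 2174 and 2036 normalised counts in Calr KO cells, against 2357, 2384 and 2295 in control cells. Its groups did not overlap, but with a log2 difference of -0.18 (SE 0.046) its limma adjusted p was 0.274. Pitpnm1, a phosphatidylinositol transfer protein gene, had a log2 difference of 0.072 (SE 0.066, limma adjusted p = 0.801).

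Several other osmolyte genes were listed at or near 0. Of 14 genes of osmolyte transport and metabolism 7 were tested and 0 passed (limma; 0 had an unadjusted p under 0.05), with a median of -0.049. The betaine carrier gene Slc6a12 had at most 5.0 normalised counts in a library, and its relative Slc6a13 was listed at 0. Slc38a2, an amino acid carrier that also responds to hypertonicity, was abundant, with 9519 ± 139 normalised counts in Calr KO cells against 9850 ± 87.1 in control cells (log2 difference -0.049, SE 0.025, limma adjusted p = 0.63). Ado, a thiol dioxygenase on the way to taurine, had 849 ± 12.4 in Calr KO and 862 ± 38.7 in control cells.

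In the polyol pathway and among the relatives of aldose reductase, 6 of 7 genes were tested and 0 passed (limma; 0 had an unadjusted p under 0.05), with a median of 0.040. Sord, which oxidises sorbitol to fructose, had 1124 ± 38.3 normalised counts in Calr KO cells against 1172 ± 41.5 in control cells (log2 difference -0.060, SE 0.055). Akr1b8 had 1001 ± 18.2 in Calr KO and 969 ± 41.1 in control cells (log2 difference 0.048, SE 0.057). Akr1a1, the aldehyde reductase, had 4495 ± 70.2 in Calr KO and 4394 ± 30.4 in control cells. The 19 cell volume regulators include the subunits of the volume-regulated anion channel that releases taurine and inositol. Of these 19 genes, 16 were tested and 0 passed, with a median of -0.025. By the unadjusted limma p, 6 of the 16 were under 0.05, against 8.88% of all tested genes. Groups did not overlap for 3 genes lower and 3 higher in Calr KO cells, as for 961 and 999 of the 13199 tested genes. The median near 0 therefore hides differences in both directions. Wnk1, a kinase that senses chloride and cell volume, had 5604 ± 104 in Calr KO and 5438 ± 256 in control cells. The chloride/proton exchanger gene Clcn3 had a log2 difference of -0.12 (SE 0.043, limma adjusted p = 0.458). Of the genes around Slc5a3, Mrps6 was tested and is given above, and Kcne1 and Kcne2 had a mean under 10.

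**Figure D4:**
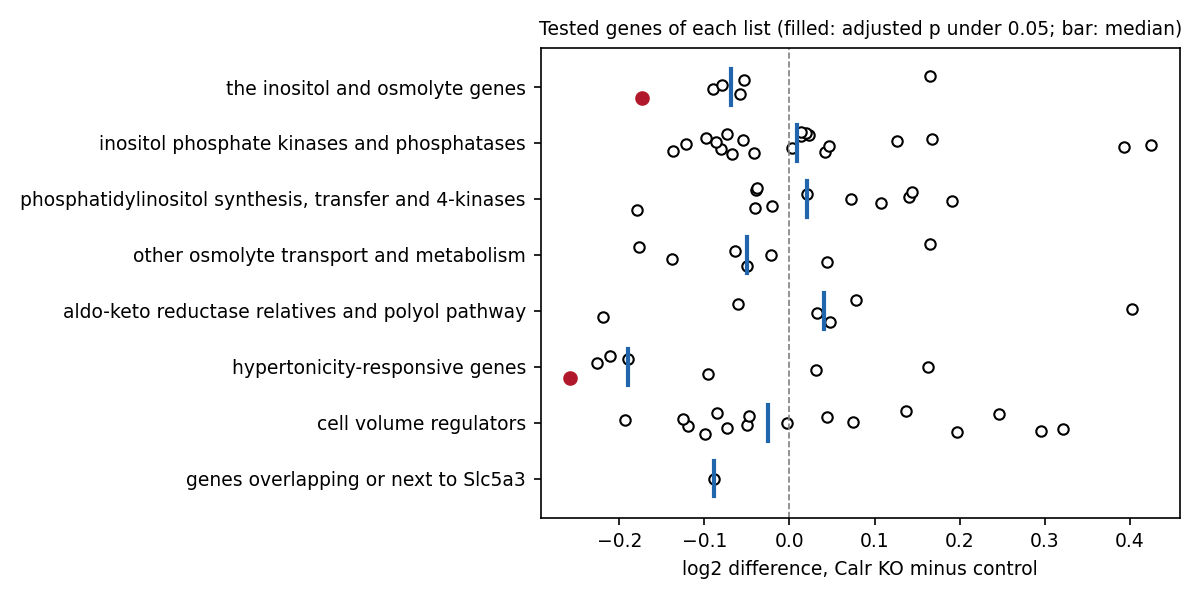
Log2 difference, Calr KO minus control, of the tested genes of the inositol and osmolyte group and of 7 related lists (points; filled where the limma adjusted p was under 0.05), with the median of each list as a bar. Slc5a3 and Hspa4l are the filled points, and the medians of the lists lie between -0.19 for hypertonicity-responsive genes and 0.040 for the polyol pathway.

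The genes whose values over the 6 libraries ran most like those of Slc5a3 were sought among 10305 tested genes with a mean of at least 50. By Pearson's r of log2 values they were Gatad2b (0.995), Cd44 (0.993), Myo18a (0.990), Itgb5 (0.984) and Ctps2 (0.982). Those that ran most against it were Klra4 (-0.9997), Zfp738 (-0.995), Oxct1 (-0.992), Napepld (-0.989) and Gpc1 (-0.982). Among so many genes and over 6 libraries of 2 groups such values arise also without a link, and the group difference is part of each. Cd44, the hyaluronan receptor gene, had 4476, 4501 and 4465 normalised counts in Calr KO cells, against 4790, 4761 and 4824 in control cells. In both Cd44 and Slc5a3 the highest Calr KO library was replicate 2 and the highest control library replicate 3. Cd44 was chosen by its r over these same libraries, so this order adds nothing to that r. Of the 10 genes, Zfp738 passed the limma test (516 ± 5.78 normalised counts in Calr KO cells against 252 ± 37.8 in control cells, adjusted p = 0.0047). The values of Nfat5, Mrps6, Slc6a6, Akr1b3, Impa1 and Impa2 ran with those of Slc5a3 at r of 0.654, 0.607, 0.589, 0.544, 0.453 and -0.322, and 1146 genes stood closer to Slc5a3 than Nfat5 did. Hspa4l had an r of 0.946, with 58 genes closer.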

How the data were processed

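RNA was sequenced from 3 Calr KO and 3 control libraries of LLC cells, prepared with a SMARTer kit, per the labels. The deposited table holds a normalised signal: counts per gene that the authors scaled with DESeq2, per the labels. STAR 2.6.1d, Salmon 0.14.1, DESeq2 1.34.0 and mm10 are named in the submitters' processing notes without role or order, with the annotation release not given in the sources used here. Only 24.8% to 53.5% of the values worth 2 to 100 reads were whole multiples of 1 read (within 0.02), so whole reads were not recovered and no count model was run. The most frequent value near 1 was taken as the worth of 1 read (0.945 to 1.04), so that libraries hold about 13571210 to 14918661 reads each. Counting intervals use these, are exact at 95% and cover counting error only.

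Genes with a mean of at least 10 were tested with limma 3.58.1 (R 4.3.3) on log2(value + 1), two-sided, with a variance prior that follows the mean, Benjamini-Hochberg adjustment over 13199 genes and a threshold of 0.05. Log2 differences are on that scale and understate changes at low levels. Libraries of 1 group differed by 3.25 to 3.55 times counting variance (median over 9869 genes), so no library was counted as a copy. Lengths and positions are from GENCODE M21 on GRCm38, the assembly of mm10, for 98.3% of the tested genes.

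The members and lists were chosen with earlier results of these data known. Named were all 7 members, in each other list the genes that passed (up to 4) or otherwise the 2 of highest mean, a few relatives set by name, and the 5 genes most and least like Slc5a3. Alternatives were other pseudocounts, filters, scalings, a single variance prior, the replicate number as a block, and each library left out.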

Additional observations from a re-analysis of the deposited data

How the results depend on the processing

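The log2 differences of the 6 tested inositol and osmolyte genes gave 90 values over 15 alternative settings. All moved by less than 1 SD of the same gene between libraries, and the difference of Slc5a3 stayed between -0.19 and -0.15. That SD was wide enough for Impa2 to change sign within it, from 0.16 to -0.048 without control replicate 1. Slc5a3 passed in 6 of 15 settings. The count of these genes that passed, 1, was 0 with no filter on low values, with a single variance prior and with the replicate block, and 0 in all 6 fits that drop 1 library; the cause was not tested. Over all genes, 37 passed, and 2 passed with a single variance prior (1 higher and 1 lower); the replicate block gave 5 lower genes in place of 11. Leaving out 1 library gave 20 to 34 genes, 14 to 25 higher and 4 to 9 lower; they were 20 on dropping Calr KO replicate 1, 21 on dropping Calr KO replicate 3, and 22 on dropping either control replicate 2 or 3. Same-numbered libraries did not deviate together (r of -0.056, -0.011 and 0.0014), so the numbers do not pair them. Hspa4l passed in 14 of 15 settings and not with a single variance prior (adjusted p = 0.367), where the count of hypertonicity-responsive genes was 0. With the longest transcript as length, the levels per kilobase were 1035 for Akr1b3, 711 for Slc6a6, 568 for Nfat5 and 284 for Impa1, against 620.2, 520.2, 416 and 219. Depth limits Isyna1, Slc5a11 and Slc2a13, with 33 estimated reads or fewer over all libraries.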

Other observations

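These genes were picked with their values in view, and none of those with a p passed the test. Among the hypertonicity-responsive genes, S100a4, a calcium-binding protein gene, had 4042, 3984 and 4344 normalised counts in Calr KO cells, against 4911, 4645 and 4905 in control cells (log2 difference -0.23, SE 0.043, limma adjusted p = 0.116). Ptgs2, the gene of cyclooxygenase 2, had 3336, 3169 and 3288 in Calr KO cells, against 3650, 3637 and 3884 in control cells (log2 difference -0.19, SE 0.041, limma adjusted p = 0.174). Neither gene had overlapping groups, which held for 7.28% of the tested genes on the lower side. Sgk1, a kinase gene of the same list, had 2781, 2566 and 2655 in Calr KO cells, against 2717, 2406 and 2719 in control cells, and its groups overlapped.

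Among the subunits of the volume-regulated anion channel, Lrrc8d had 444, 381 and 445 normalised counts in Calr KO cells, against 346, 356 and 312 in control cells (log2 difference 0.32, SE 0.096, limma adjusted p = 0.364). Lrrc8b had 679, 655 and 642 in Calr KO cells, against 540.0, 622 and 564 in control cells (log2 difference 0.20, SE 0.074, limma adjusted p = 0.495). The obligatory subunit gene Lrrc8a had 314, 292 and 324 in Calr KO cells, against 353, 299 and 347 in control cells (log2 difference -0.0997), and its groups overlapped. Groups also overlapped for the remaining subunit genes. Lrrc8c had a log2 difference of 0.30 (SE 0.10, limma adjusted p = 0.462), and Lrrc8e one of -0.073 (SE 0.12, limma adjusted p = 0.904). Stk39, a kinase gene among the cell volume regulators, had 767, 863.5 and 831 in Calr KO cells, against 664, 732 and 678 in control cells. Its log2 difference was 0.25 (SE 0.071, limma adjusted p = 0.338). Ppip5k1, an inositol pyrophosphate kinase, had 562, 628 and 496 in Calr KO cells, against 384, 451 and 445 in control cells (log2 difference 0.39, SE 0.10, limma adjusted p = 0.29).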
